A study of Arabidopsis thaliana with 5 samples.

Results

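Transcripts of 6 genes of starch, sucrose and pyruvate metabolism were followed in Arabidopsis thaliana plants that had been clipped, in the tissue labelled secondary meristem. The genes are APL3 (AT4G39210), SBE2.2 (AT5G03650), DPE1 (AT5G64860), ATSPS4F (AT4G10120), AT1G62660 and PPDK (AT4G15530). They were chosen by gene identity, with 1 probe set each, out of 22746 probe sets that are not controls and 13355 genes with a named probe set. No cut on a value chose them, but earlier results of these arrays were known when they were picked. Their values and tests below are therefore a description.

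The material came from 2 ecotypes that the series' design text calls different in how they compensate for damage. Columbia had 3 arrays and Landsberg erecta had 2. All plants were clipped at bolting to imitate damage by a mammal and sampled on the following day, so the clipped state is shared by both groups and its effect was not analysed here. Seeds were kept cold for 3 days, and plants grew in 3 inch pots in a greenhouse with 16 h light and 8 h dark. The labels call the arrays biological replicates, without saying how many plants each held.

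In plants, starch is made in the plastid from ADP-glucose and taken apart again by phosphorylation, hydrolysis and rearrangement of the glucans, mostly at night. Sucrose, the sugar that moves between organs, is made in the cytosol and is cleaved again by invertases and sucrose synthases where it is used. Phosphoenolpyruvate and pyruvate link these sugars to respiration, amino acids and lipids. Growing buds import sucrose and can hold starch for a time.

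Array medians lay between 5.44 and 5.51 on the log2 scale, and on each array 24.4% to 25.2% of the probe sets sat at the lowest value of the table, 2.15. The 6 genes all lay well above that value. Of the 22746 probe sets, 16428 varied between arrays, and 54.9% of these held the same value on at least 2 arrays. Among the markers of shoot and axillary meristems, 2 of 9 were measured, which here means a probe set named with that gene alone. Unnamed probe sets and those naming several genes were not read for the lists, so other markers may be among them. The 2 measured ones, CLV3 and LAS, sat at 2.15 on all 5 arrays, while the green tissue marker RCA lay between 14.37 and 14.60. The label of the tissue was thus not borne out by these 2 meristem genes. In such bulk samples, fewer cells of a type and less RNA per cell cannot be told apart.

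Across the 5 arrays the 6 genes differed in how much they varied. The starch making genes APL3 and SBE2.2 stayed within 1.19-fold and 1.14-fold, while PPDK spanned 5.35-fold between its lowest and highest array. DPE1 spanned 1.82-fold, ATSPS4F 1.59-fold and AT1G62660 1.44-fold. A larger range than that of PPDK was found in 0.59% of the probe sets that varied. The corresponding shares were 10.3% for DPE1, 18.9% for ATSPS4F, 30.7% for AT1G62660, 68.6% for APL3 and 76.8% for SBE2.2. PPDK was the single gene of the 6 whose lowest and highest arrays lay at least 2-fold apart, which held for 7.19% of all probe sets that varied.

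**Figure D1:**
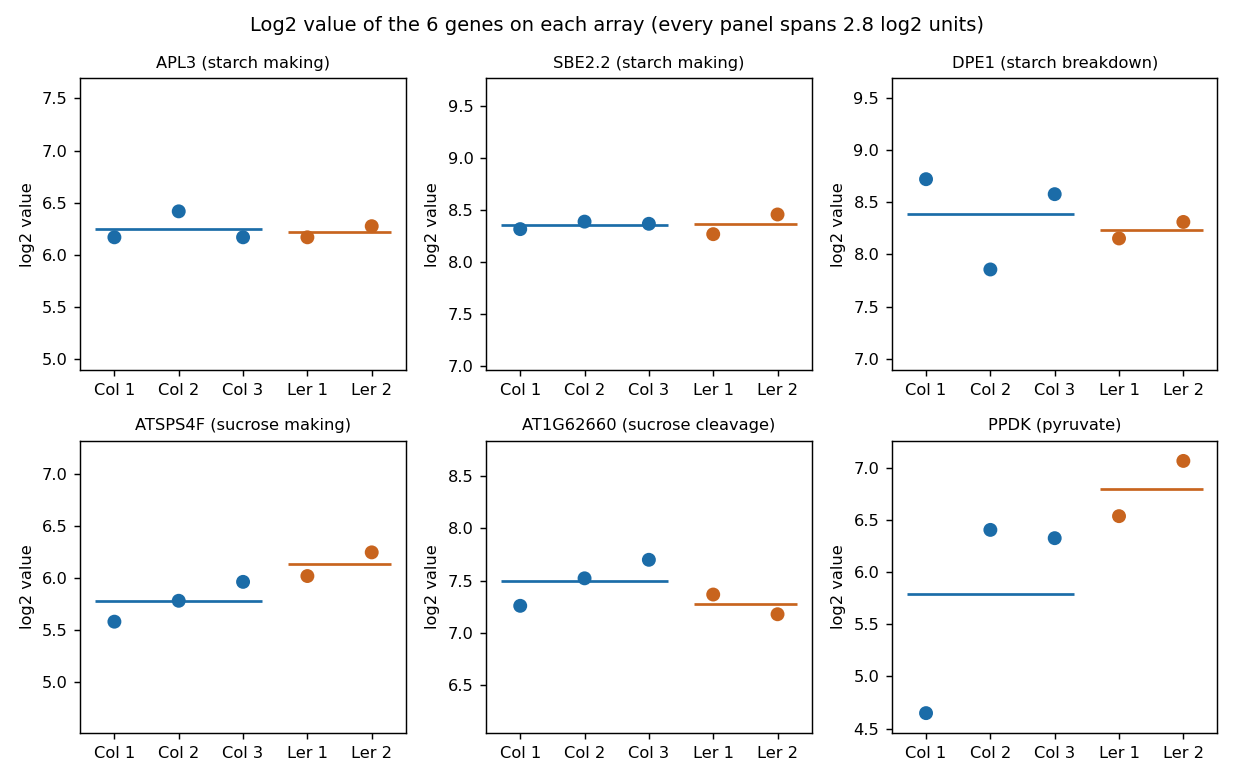
Log2 value (vertical axis) of each of the 6 genes on each array (horizontal axis, Col for Columbia and Ler for Landsberg erecta). Points are arrays and lines are ecotype means. Every panel spans the same number of log2 units, so the low PPDK value of 4.65 on Columbia replicate 1 stands out against the flat APL3 and SBE2.2.

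The starch making genes among the 6 differed little between arrays of either ecotype. APL3 encodes a large, regulatory subunit of ADP-glucose pyrophosphorylase, which supplies ADP-glucose for starch. Its log2 values were 6.17, 6.42 and 6.17 in Columbia, against 6.17 and 6.27 in Landsberg erecta. The value 6.17 was the identical number on Columbia replicates 1 and 3 and Landsberg erecta replicate 1, and the groups overlapped. Such ties may make its spread look smaller than it is. The ecotype difference of APL3, Columbia minus Landsberg erecta, was 0.03 with a 95% interval from -0.29 to 0.35.

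SBE2.2 encodes a starch branching enzyme, which adds the branch points of amylopectin. It had log2 values of 8.32, 8.39 and 8.37 in Columbia, against 8.27 and 8.46 in Landsberg erecta. The Landsberg erecta arrays held both the lowest and the highest value, so the Columbia arrays lay between them. The difference was -0.01, with a 95% interval from -0.22 to 0.21. For both starch making genes these intervals lay well inside a 2-fold change in either direction. Differences small enough to fall within the intervals could not be resolved with 5 arrays.

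DPE1 represents starch breakdown. It encodes the plastid disproportionating enzyme, which rearranges short glucans such as maltotriose so that they can be broken down further. Its log2 values were 8.72, 7.86 and 8.58 in Columbia, against 8.15 and 8.31 in Landsberg erecta. Columbia replicate 2 was the lowest array and the other 2 Columbia arrays were the highest, with Landsberg erecta between them. The range within Columbia, 0.87, was larger than the ecotype difference of 0.15, whose 95% interval ran from -0.84 to 1.15. Without Columbia replicate 2 the difference was 0.42, and without Columbia replicate 1 it was -0.02, so its direction rested on single arrays.

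The ecotype differences of the 2 sucrose genes had opposite signs, and the intervals of both included 0. ATSPS4F encodes a sucrose phosphate synthase, the enzyme that joins UDP-glucose and fructose 6-phosphate on the way to sucrose. Its log2 values were 5.58, 5.78 and 5.96 in Columbia, against 6.02 and 6.25 in Landsberg erecta. Each Columbia array lay below each Landsberg erecta array, although the gap between the nearest arrays of the ecotypes was small beside the spread inside each. The Columbia mean was 5.77 ± 0.19 (SD, n = 3) and the Landsberg erecta mean 6.13 ± 0.16 (SD, n = 2). They differed by -0.36, and the 95% interval reached from -0.83 to 0.11.

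AT1G62660 encodes a vacuolar invertase, which splits stored sucrose into glucose and fructose. It had log2 values of 7.26, 7.52 and 7.70 in Columbia, against 7.37 and 7.18 in Landsberg erecta. The mean was higher in Columbia, but Columbia replicate 1 lay below Landsberg erecta replicate 1, so the groups overlapped. The difference was 0.22, with a 95% interval from -0.29 to 0.73.

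PPDK had the largest spread of the 6 genes. It encodes pyruvate orthophosphate dikinase, which turns pyruvate into phosphoenolpyruvate and in Arabidopsis is known from senescing leaves and germinating seeds. Its log2 values were 4.65, 6.41 and 6.33 in Columbia, against 6.54 and 7.07 in Landsberg erecta. Every Columbia array lay below both Landsberg erecta arrays, and Columbia replicate 1 lay 1.68 below the next array. A drop on Columbia replicate 1 to at least 2-fold below each other array was seen in 0.274% of the probe sets that varied (45 of 16428).

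That single array set much of the PPDK difference. The Columbia mean was 5.79 ± 0.99 (SD, n = 3) and the Landsberg erecta mean 6.80 ± 0.37 (SD, n = 2). They differed by -1.01, and the 95% interval reached from -3.18 to 1.16. Without Columbia replicate 1 the difference was -0.44. The interval of PPDK and that of DPE1 reached beyond a 2-fold change, whereas those of the other 4 genes did not. GUT2, a xylan synthesis gene and the measured marker of stem secondary walls (1 of 6 listed), was also lowest on Columbia replicate 1, at log2 values of 5.79, 6.88 and 8.27 in Columbia, against 7.68 and 8.01 in Landsberg erecta. Its part in the PPDK value was not tested.

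None of the 6 genes was called between the ecotypes (0 of 6) by limma with Benjamini-Hochberg adjustment over all 22746 probe sets. As a background, 0% of all probe sets were called with a higher level in Columbia, and 0% with a higher level in Landsberg erecta. The adjusted p of all 6 genes was 1 in limma, and their unadjusted p from the same limma fit ran from 0.0972 for ATSPS4F to 0.947 for SBE2.2, so that 0 of 6 were under 0.05. Over all probe sets tested, 406 of 22746 were under 0.05 unadjusted in that fit, so 0 of 6 does not set these genes apart from the rest. The median ecotype difference was 0.01 over the 6 genes and 0 over all probe sets tested.

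There was no overlap between ecotypes for 2 of the 6 genes, ATSPS4F and PPDK, both lower on every Columbia array. Absence of overlap with lower Columbia values was found in 4.05% of all probe sets that varied, and in 5.42% with higher ones. As the genes were chosen with these values known, nothing is read from that count. For all 6 genes the range within Columbia exceeded the ecotype difference, which was also so for 72.9% of the probe sets that varied. Some other readings of the same arrays, which follow, also separated the ecotypes.

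The 25S ribosomal RNA control had log2 values of 7.77, 8.11 and 8.17 in Columbia, against 7.16 and 6.53 in Landsberg erecta. The log2 ratio of the 3 prime to the 5 prime GAPDH control, a reading of RNA integrity and labelling, was 0.89, 0.92 and 0.98 in Columbia, against 1.25 and 1.22 in Landsberg erecta. The summed level of the green tissue markers, of which 2 of 10 were measured (RCA and LHCB4.1, neither at the minimum), lay between 15.23 and 15.27 in Columbia and between 15.05 and 15.10 in Landsberg erecta. None of these 3 readings overlapped between the ecotypes. The same ratio for the ubiquitin control did overlap, at 0.88, 0.73 and 0.94 in Columbia, against 0.90 and 0.85 in Landsberg erecta. The part of these readings in the ATSPS4F and PPDK values was not tested.

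**Figure D2:**
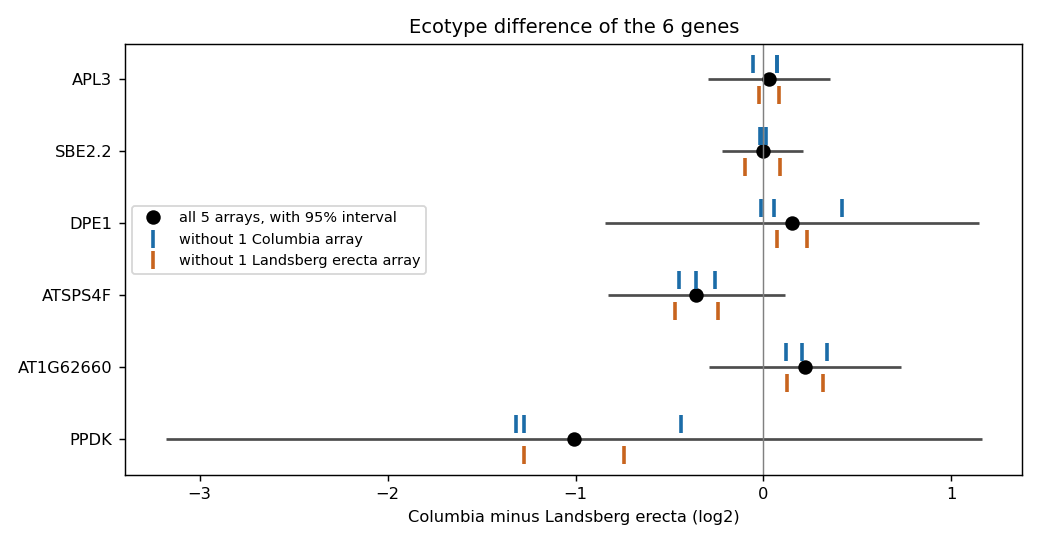
Ecotype difference (horizontal axis, Columbia minus Landsberg erecta on the log2 scale) of the 6 genes (vertical axis). Black points with lines are limma estimates from all 5 arrays with 95% intervals, and ticks are the estimates with 1 array left out. All 6 intervals include 0, and the PPDK estimate is -0.44 without Columbia replicate 1, beside -1.01 with all arrays.

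The steps were then compared with each other through the deviation of each gene from its own mean over the 5 arrays, since values of different probe sets cannot be set against each other. Starch making, the mean of the APL3 and SBE2.2 deviations, stayed between -0.08 and 0.10 on the log2 scale on all arrays. Starch breakdown, read from DPE1, ran from -0.47 on Columbia replicate 2 to 0.40 on Columbia replicate 1. On Columbia replicate 2, starch making had its highest deviation, 0.10, while DPE1 had its lowest. The former came mostly from APL3, at 0.18, while SBE2.2 was at 0.03 there and was highest on Landsberg erecta replicate 2.

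Breakdown relative to making, the difference of these deviations, was 0.45, -0.57 and 0.29 in Columbia, against -0.09 and -0.08 in Landsberg erecta. The Columbia arrays thus lay on both sides of the Landsberg erecta arrays, which were nearly equal. The mean difference between the ecotypes was 0.14, against an SD of 0.55 in Columbia, and it was -0.06 without Columbia replicate 1 and 0.45 without Columbia replicate 2.

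Of the 6 pairings of starch and sucrose steps, 2 did not overlap between the ecotypes, and no share over other pairs of genes was computed to set beside that count. Both contained ATSPS4F, which did not overlap by itself either, so nothing is read from that count. One was sucrose cleavage relative to sucrose making. The AT1G62660 deviation minus the ATSPS4F deviation was 0.19, 0.25 and 0.25 in Columbia, against -0.14 and -0.56 in Landsberg erecta. The Columbia arrays lay close together and above the Landsberg erecta arrays, which were farther apart. The ecotype difference of this balance was 0.58 on the log2 scale. More of it came from ATSPS4F, with a difference of -0.36, than from AT1G62660, with 0.22. It was 0.37 without Landsberg erecta replicate 2, the array with the lowest AT1G62660 and the highest ATSPS4F value. No p is given, because the balance was put together from genes whose values were known.

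The other was starch making relative to sucrose making, at 0.28, 0.24 and -0.08 in Columbia, against -0.18 and -0.26 in Landsberg erecta. As the starch making genes were nearly flat, this balance mostly carried the ATSPS4F values with their sign turned. DPE1 against either sucrose gene and starch making against AT1G62660 overlapped between the ecotypes.

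**Figure D3:**
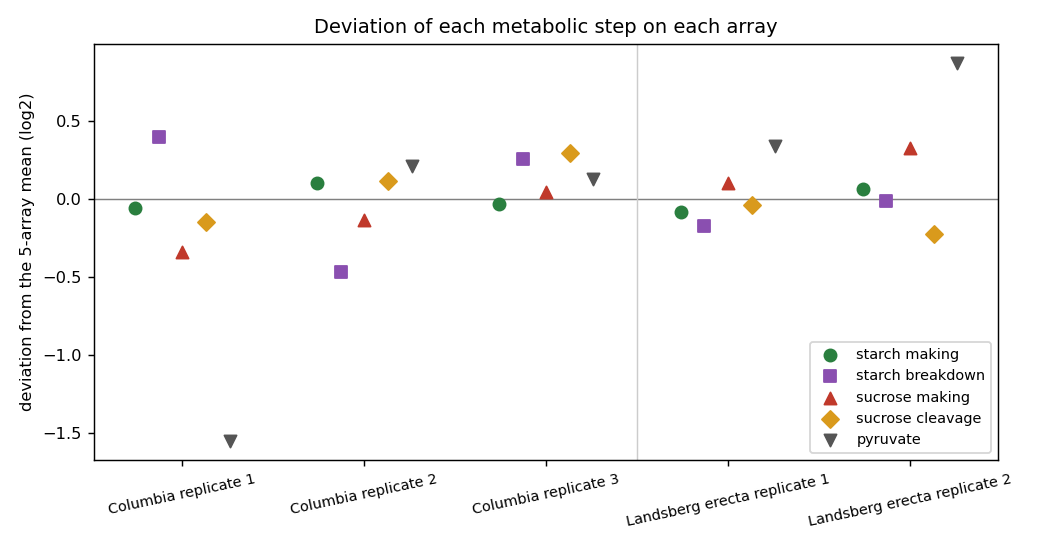
Deviation of each step from its mean over the 5 arrays (vertical axis, log2) on each array (horizontal axis). Starch making is the mean of 2 genes and the other steps are 1 gene each. Each gene is centred on its own mean, so 0 is no level of its own. Starch making stays near 0, and pyruvate (PPDK) is at -1.55 on Columbia replicate 1.

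Other genes of the same pathways were read from 9 lists with 137 loci, of which 26 genes, the 6 included, had a named probe set. No gene of these lists was called in either direction (0 of 26, limma adjusted p). Of the 26 genes, 14 had a higher mean in Columbia, 6 a higher mean in Landsberg erecta and 6 held 1 value on all arrays, and their median difference was 0.01. The lists of trehalose phosphate and sugar status genes had 0 genes each with a probe set named with that gene alone.

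In the starch lists, 3 of 18 synthesis genes and 4 of 24 breakdown genes were measured. APL4, another large subunit gene of ADP-glucose pyrophosphorylase, had log2 values of 7.29, 6.99 and 7.21 in Columbia, against 6.98 and 7.42 in Landsberg erecta. It spanned 1.36-fold across the arrays, more than APL3 or SBE2.2, so the small ranges of those genes need not hold for starch making as a whole. PWD (AT5G26570) encodes a dikinase that phosphorylates starch granules ahead of their breakdown. It had 8.95, 8.02 and 9.08 in Columbia, against 8.88 and 9.06 in Landsberg erecta. Like DPE1, it was lowest on Columbia replicate 2, which lay 0.86 below the next array for PWD and 0.30 below it for DPE1.

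AMY1, an alpha-amylase gene, had log2 values of 5.29, 5.29 and 6.13 in Columbia, against 5.29 and 5.13 in Landsberg erecta. AT4G24450, which the annotation also names PWD, had 4.61, 4.62 and 5.22 in Columbia, against 4.79 and 4.71 in Landsberg erecta. Both were highest on Columbia replicate 3, as PWD was by a small margin, while DPE1 was highest on Columbia replicate 1. Columbia replicate 2, the lowest array for DPE1 and PWD, was not the lowest for AMY1 or AT4G24450. Their ecotype differences ran from -0.29 for PWD to 0.36 for AMY1.

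In the sucrose lists, 3 of 11 synthesis genes and 2 of 20 cleavage genes were measured. AT2G35840, a sucrose phosphatase gene, had log2 values of 9.41, 9.91 and 9.70 in Columbia, against 9.61 and 9.55 in Landsberg erecta. Its lowest array, Columbia replicate 1, was also the lowest for ATSPS4F, while its highest, Columbia replicate 2, was not. AT3G54270, of the same enzyme family, held 4.23 on 4 arrays and 4.43 on Columbia replicate 2. The ecotype differences of AT2G35840 (0.09) and AT3G54270 (0.06) had the opposite sign to that of ATSPS4F (-0.36). The invertase family gene cwINV6 held 2.154 on all arrays, just above the lowest value of the table, 2.149.

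Of 16 genes that move sucrose or phosphorylate hexoses, 6 were measured, 4 varied and 0 were called (limma adjusted p). These 4 had higher means in Columbia, as 53.2% of all probe sets that varied did, and for SWEET11 and AT3G59480 a single Columbia array set the difference. SWEET11, a sucrose exporter of the phloem and the 1 measured gene of 7 transport genes, had log2 values of 6.50, 6.53 and 7.49 in Columbia, against 6.53 and 6.40 in Landsberg erecta. Columbia replicate 3 was the high array. Of 9 genes of hexose phosphorylation, 5 fructokinase genes were measured. AT2G31390 had 9.97, 10.09 and 10.53 in Columbia, against 10.10 and 9.82 in Landsberg erecta. AT5G51830 was 6.48, 6.48 and 6.59 in Columbia, against 6.28 and 6.30 in Landsberg erecta, without overlap. AT3G59480 held 3.27 on 4 arrays and 3.81 on Columbia replicate 2, while AT1G06020 and AT4G10260 sat at 2.15 on every array.

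Around PPDK, 8 of 36 genes of pyruvate and phosphoenolpyruvate metabolism were measured. PDC2, a pyruvate decarboxylase gene of the fermentation route, had log2 values of 8.05, 6.26 and 8.40 in Columbia, against 7.29 and 7.84 in Landsberg erecta. Columbia replicate 2 lay 1.03 below the next array for PDC2, a drop of at least 2-fold on that array that 0.371% of the probe sets that varied had. It was thus another array than the one on which PPDK was low.

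Pyruvate kinase, which runs from phosphoenolpyruvate to pyruvate, was steadier. AT5G56350 had log2 values of 9.55, 9.09 and 9.61 in Columbia, against 9.01 and 9.30 in Landsberg erecta. AT5G08570 had 9.66, 9.55 and 9.55 in Columbia, against 9.41 and 9.76 in Landsberg erecta, and AT5G63680 had 8.28, 8.29 and 8.27 in Columbia, against 8.12 and 8.41 in Landsberg erecta. AT5G08570 and AT5G63680 had both their lowest and highest values in Landsberg erecta, as SBE2.2 did. The other 3 measured genes, AT3G04050, AT3G25960 and AT4G26390, sat at 2.15 on all arrays.

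**Figure D4:**
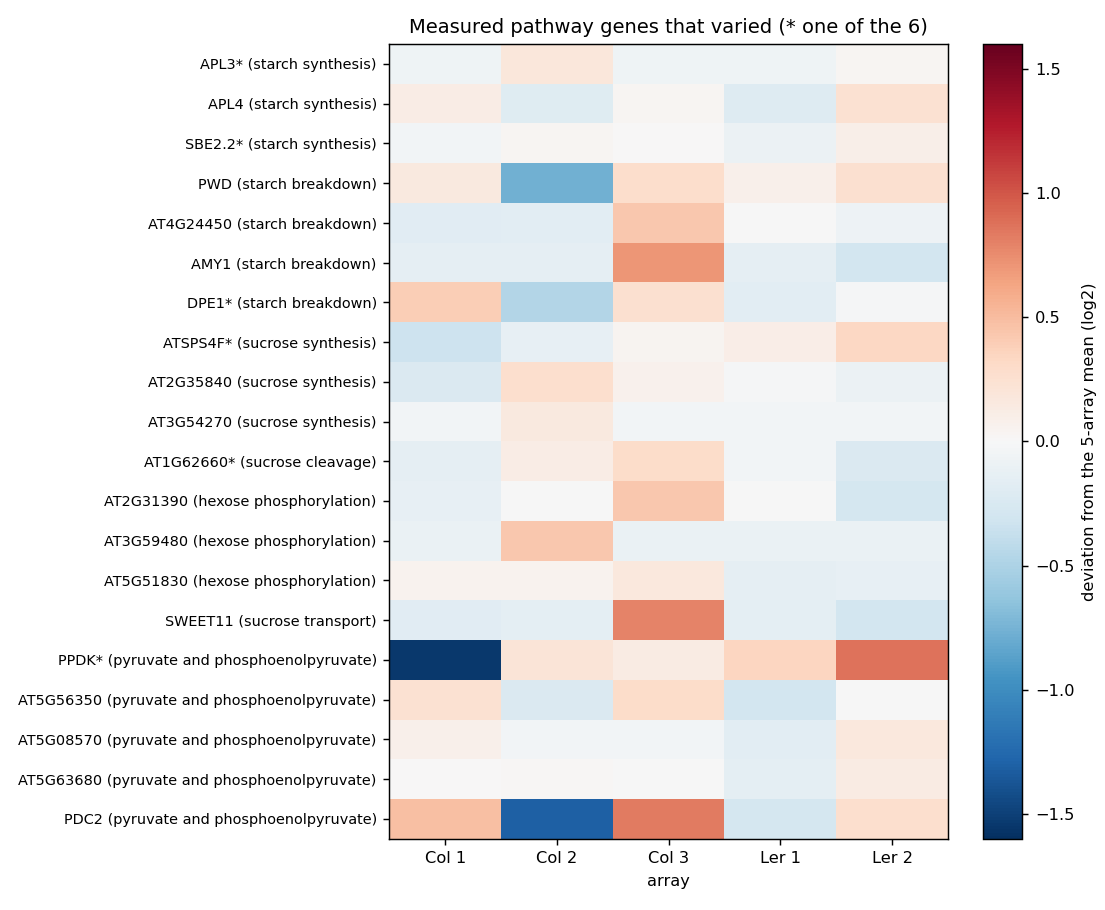
Deviation of the log2 value from the gene's mean over the 5 arrays (colour) for the 20 measured pathway genes that varied (rows, with the list in brackets and the 6 genes marked by an asterisk) on each array (columns). DPE1, PWD and PDC2 are low on Columbia replicate 2, and PPDK is low on Columbia replicate 1.

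GI, the 1 measured gene of 11 circadian clock genes, was lowest on Columbia replicate 2, as were DPE1, PWD and PDC2. That array was the lowest for 3 of the 20 pathway genes that varied, which are DPE1, PWD and PDC2, and for 13.4% of all probe sets that varied. The log2 values of GI were 8.03, 7.18 and 8.36 in Columbia, against 7.83 and 8.67 in Landsberg erecta. The labels give no hour of sampling, and the part of the time of day in these values was not tested. On Columbia replicate 3, the array with the highest AT1G62660 value, the summed anther markers were low, at 7.01, 7.19 and 5.58 in Columbia, against 6.64 and 7.53 in Landsberg erecta (3 of 5 measured, AMS, EMS1 and SPL, with none at the minimum). Their part in the AT1G62660 value was not tested.

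Of the 20 pathway genes that varied, 9 had their highest value on Columbia replicate 3, and 6 on Landsberg erecta replicate 2. Over all probe sets that varied the shares highest on these arrays were 21.2% and 21.0%. Landsberg erecta replicate 1 was the highest array for 0 of the 20 genes and the lowest for 6, where 17.7% of all probe sets that varied were highest and 16.2% lowest on it. Columbia replicate 3 was the lowest array for 0 of the 20 genes, where 20.0% of all probe sets that varied were lowest on it. Columbia replicate 2 was the lowest for 3 of the 20 genes and the highest for 4. Over all probe sets that varied, 13.4% were lowest and 19.5% highest on Columbia replicate 2.

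The genes whose profile lay nearest to each of the 6 were found by the root mean square distance of log2 deviations over the 5 arrays. For DPE1 they were AT1G51610, at a distance of 0.09, and PORB, a chlorophyll synthesis gene, also at 0.09, where DPE1 itself had an SD of 0.34. PORB had log2 values of 11.80, 10.73 and 11.61 in Columbia, against 11.31 and 11.29 in Landsberg erecta. It was picked for its likeness to DPE1, so its lowest value on Columbia replicate 2 is no separate observation. ATSPS4F was nearest to AT4G13550 (0.06) and AT1G04300 (0.07), with an SD of its own of 0.25.

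AT1G62660, with an SD of 0.21, was nearest to AT3G15430 (0.04) and AT3G51750 (0.04). APL3 lay nearest to AT5G65470 (0.02) and AT3G19080 (0.02), and SBE2.2 to AT5G60170 (0.01) and AT1G21920 (0.02), beside SDs of 0.11 and 0.07. For PPDK the nearest genes, AT3G22540 and chr31, were still 0.37 and 0.38 away, beside an SD of 0.91, so its profile was matched least closely in absolute distance. Among the 6 genes themselves, the nearest pair was APL3 and SBE2.2, at 0.08, and the farthest was DPE1 and PPDK, at 1.03. The distance is not scaled by spread, and these were the pairs with the smallest and the largest SDs, so no likeness of profile is read from it. DPE1 and PPDK lay on the same side of their means on 1 of 5 arrays, as did APL3 and DPE1. APL3 and SBE2.2 did so on 4, as did SBE2.2 with AT1G62660 and with PPDK, and ATSPS4F with PPDK.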

How the data were processed

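The authors deposited 1 log2 value per probe set and array, judged to be log2 by the range of 2.15 to 15.13. Per the labels' protocols, 2 ug of Trizol-extracted RNA went into biotin-labelled cRNA for Affymetrix arrays. Background correction, normalization and probe set summary are not given in the sources used here. What they did to these values is unknown. The number of arrays limits the precision.

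Probe sets were named through the annotation of the platform and RefSeq (assembly TAIR10.1); 13513 probe sets had 1 gene (13436 matched RefSeq), 503 had several and 8794 were unnamed. No coordinates were used. Columbia minus Landsberg erecta was fitted with limma 3.58.1 in R 4.3.3 (lmFit, eBayes, 5 arrays, no covariate or filter), adjusted by Benjamini-Hochberg over 22746 probe sets (64 controls left out) at a threshold of 0.05. The fit was tested on simulated data. Figures used matplotlib 3.10.9.

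The 6 genes, the lists and the rule for named genes were chosen with earlier results of these data known. Named were the 6 genes, the 2 nearest profiles of each, all measured genes of a pathway list (the 6 with the highest mean where there were more, with the remaining 2 pyruvate kinase genes at the minimum added afterwards) and up to 3 genes of a marker list. Alternatives were other scalings, filters, variance settings and thresholds, array weights, a replicate block (replicates 1 and 2 of each ecotype) and each array left out. Step comparisons were added after the data were seen. Replicate numbers are not said to pair arrays.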

Additional observations from a re-analysis of the deposited data

How the results depend on the processing

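The limits are the 5 arrays, the ties between them and the unstated normalization. In 78 alternative values for the 6 genes, 13 per gene, 0 were called (limma adjusted p from 0.719 to 1), and ATSPS4F, AT1G62660 and PPDK kept their direction in all of them. The differences near 0 changed sign in 6 cases. The SBE2.2 difference was 0.0165 with equal array medians, 0.0154 without Columbia replicate 1 and 0.0894 without Landsberg erecta replicate 2. That of DPE1 was -0.0155 without Columbia replicate 1, and that of APL3 was -0.0533 without Columbia replicate 2 and -0.0236 without Landsberg erecta replicate 1. Equal medians move all probe sets of an array by the same amount. They raised the differences of all genes alike, that of APL3 from 0.0297 to 0.0513 and that of SBE2.2 from -0.0051 to 0.0165. The other changes of sign follow from fewer arrays. Over all left-out arrays, differences ran from -0.0995 to 0.0894 for SBE2.2, from -0.0533 to 0.083 for APL3, from -0.0155 to 0.418 for DPE1, from -0.47 to -0.24 for ATSPS4F, from 0.12 to 0.34 for AT1G62660 and from -1.32 to -0.44 for PPDK.

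The numbers of probe sets called higher in Columbia and in Landsberg erecta, 0 and 0, were 265 and 141 at an unadjusted p under 0.05. With single arrays left out they ran from 0 to 356 and from 0 to 658. All such calls needed a lone Landsberg erecta array, assumed to vary like those of Columbia. There were 1014 calls when replicate 1 was dropped and 935 when replicate 2 was, with 1 identical value on all Columbia arrays for 650 and 703 of these. With the replicate number as a block the counts were 0 and 0, the PPDK difference was -1.28 and that of ATSPS4F -0.45, and no call changed. The labels do not say that the numbers pair arrays, and deviations from the ecotype means correlated, over probe sets, by -0.02 between the arrays numbered 1 and by 0.08 between those numbered 2.

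Sucrose cleavage relative to sucrose making ran from 0.37 to 0.79 with single arrays left out and was 0.56 after quantile normalization. Starch making relative to sucrose making ran from 0.30 to 0.48.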

Other observations

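The spike-in control probe sets of the array set Landsberg erecta replicate 2 apart. The mean log2 value of the 6 dap control probe sets was 6.67, 6.92 and 6.92 in Columbia, against 6.24 and 7.76 in Landsberg erecta. The 6 thr control probe sets averaged 4.59, 4.61 and 4.68 in Columbia, against 4.22 and 5.23 in Landsberg erecta. Replicate 2 of Landsberg erecta was the highest array for both and also for SBE2.2, ATSPS4F and PPDK, but the lowest for AT1G62660. Over all probe sets that varied, 21.0% were highest and 19.5% lowest on it. Replicate 1 of Landsberg erecta was the lowest for both and also for SBE2.2, as for 16.2% of all probe sets that varied. The part of these controls in the values of these genes was not tested.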
